A study of Mus musculus with 6 samples.

Results

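The connexins are the proteins of gap junctions, and 9 of the 20 connexin genes of the mouse table, which lists 43432 genes, were followed here by name: Gja1, Gja3, Gja4, Gja5, Gja6, Gjb2, Gjc1, Gjc3 and Gjd3. The members were taken as a named family, not by their values. RNA was sequenced from the right and left atria of C57/Bl6J mice, 3 samples from obese mice fed a high-fat diet (HFD) and 3 from lean mice fed control chow, with a wild-type genotype in both groups. Feeding began at 6 weeks of age and lasted 10 weeks, so that tissue was taken at 16 weeks. The labels conflict: titles and column names agree on the diet of each of the 6 samples, and the treatment field states the reverse. Groups follow the titles here, and every direction would turn if the treatment field were the correct one. Whether each sample held the atria of a single mouse is not given in the sources used here. The p-values therefore refer to samples, which may not be single mice.

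Connexins assemble as rings of subunits in the membrane of one cell and dock with the rings of its neighbour, which leaves a channel through which ions and small molecules pass directly between the cells. In the atrium such channels carry the impulse from myocyte to myocyte, and the kind of connexin present sets how well neighbouring cells are coupled. Connexin 43, from Gja1, is shared by the working myocytes of all chambers, whereas connexin 40, from Gja5, is found in atrial myocytes, in the fast conduction system and in arterial endothelium.

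Values are normalized counts, which are reads divided by 1 size factor per sample. Differences between diets are on the scale log2(normalized count + 1), HFD minus control, with limma's moderated test and Benjamini-Hochberg adjustment over the 15275 genes whose mean reached 10 normalized counts. In that test the variance of a gene is drawn towards that of genes of like expression, so its p-value rests only partly on its own spread. The reads on genes numbered 15874251 to 17351467 in 5 samples and 28971508 in control sample 2, where 30.7% of reads were mitochondrial against 19.5% to 24.4% elsewhere. A signal of 3 reads, taken as the lowest level to be read, equalled 2.05 normalized counts in that sample and 3.01 to 3.41 in the others, which covers counting error only. The connexin genes together held 0.045% to 0.0557% of the reads of the HFD samples and 0.057% to 0.0793% of those of the control samples. The defining markers of atrial myocytes were abundant in every sample, with Nppa at 171702 normalized counts or more, and the ventricular light chain Myl2 stood at 8176 in control sample 2 against 2290 to 3470 in the other 5. Of 5 epithelial and lung markers, Sftpb and Scgb1a1 were at 0 in all samples, and Sftpc and Epcam reached at most 1.14 and 3.36 normalized counts. Cdh1 was at 13.0 in control sample 2 and 7.14 in HFD sample 2, and at most 1.14 elsewhere.

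Gja5 was the only connexin tested whose difference between diets had an adjusted p under 0.05 in limma. It fell in the HFD samples to less than its level in any control sample. Of the 9 connexins, 7 were abundant enough to be tested, and 1 of the 7 had an adjusted p under 0.05, against 0.746% of all genes tested in either direction and 0.262% lower in HFD. Of the same 7, 5 had a lower and 2 a higher fitted value in HFD, with a median difference of -0.17 against 0.00492 over all genes. An unadjusted p under 0.05 was found for Gja1, Gja3 and Gja5, all lower in HFD, where the shares among all genes were 12.2% in either direction and 5.55% lower in HFD. The groups did not overlap for Gja3 and Gja5, against 18% of all genes in either direction and 9.17% lower in HFD. In bulk tissue, fewer cells of a type and less RNA per cell cannot be told apart.

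**Figure D1:**
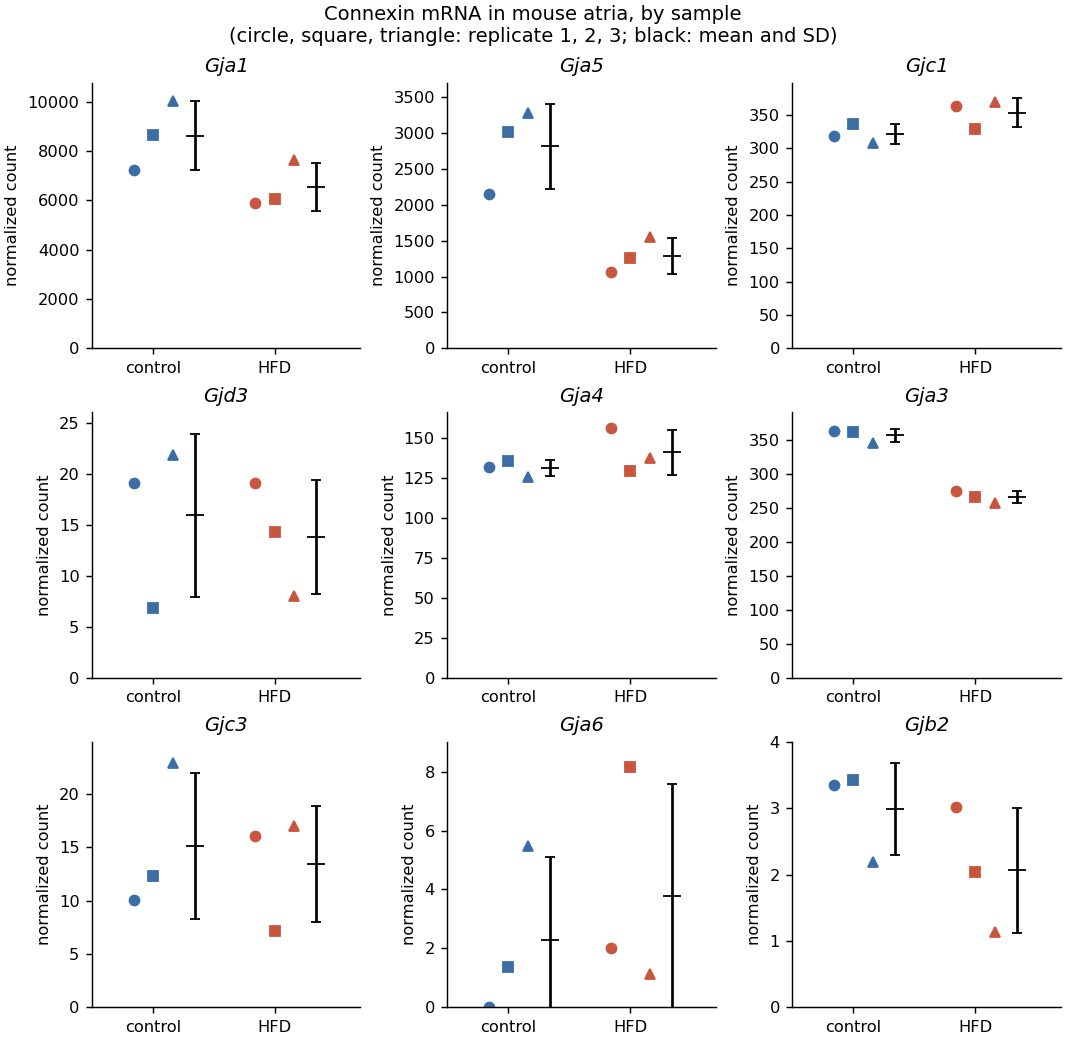
Normalized counts of the 9 connexins in each sample (vertical axis, from 0), with control in blue and HFD in red, symbols for replicates 1 to 3, and the mean with SD in black beside them (cut at 0 for Gja6). The control values of Gja5 lie between 2152 and 3277, all above the HFD values, the highest of which is 1554.

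Gja5 is the connexin of fast conduction in atrial myocytes. Its gene (ENSMUSG00000057123) lies on chromosome 3 of GRCm38, from 97032416 to 97053634 on the forward strand. The HFD samples 1, 2 and 3 had 1059.8, 1254 and 1554 normalized counts, and the control samples had 2152, 3019 and 3277. The highest HFD sample was thus below the lowest control sample, with a gap of 598 normalized counts. The means were 1289 ± 249 (SD, n = 3) with HFD and 2816 ± 589 (SD, n = 3) with control, so that the control mean was 2.18-fold the HFD mean. The difference on the log2 scale was -1.12 (95% interval -1.52 to -0.72, adjusted p = 0.0252 from limma). An exact permutation test of the 6 values gave a two-sided p of 0.1, the lowest possible with 3 samples against 3. The adjusted p from limma exceeded 0.05 when single samples were left out, at 0.0703 without HFD 1, 0.0932 without HFD 2, 0.123 without control 2 and 0.127 without control 3. It also did so in a fit with no trend of variance on expression (0.183), while the log2 difference stayed between -1.30 and -0.99 under all 16 alternatives.

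Gja1 encodes the main gap junction protein of the working myocardium. Its gene (ENSMUSG00000050953) lies on chromosome 10, from 56377300 to 56390419 on the forward strand. Its level was 5892, 6053 and 7636 normalized counts in HFD samples 1 to 3 and 7207, 8630.1 and 10009 in control samples 1 to 3. HFD sample 3 was above control sample 1, so the groups overlapped. The means were 6527 ± 964 with HFD and 8615 ± 1401 with control (SD, n = 3 each). The log2 difference of -0.40 (95% interval -0.73 to -0.06) had an unadjusted p of 0.0245 and did not pass adjustment in limma (adjusted p = 0.322). The smallest adjusted p for Gja1 under any of the 16 alternatives was 0.101.

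The promoters of Gja5 and Gja1, the connexins of atrial working muscle, and of Gja3, the other member with separate groups, are printed as RefSeq gives them (GRCm38.p6), from 250 bases before to 50 bases after the start site and read 5′ to 3′ on the strand of the gene. Their positions are chr3:97032152-97032451 (forward) for Gja5, chr10:56377050-56377349 (forward) for Gja1 and chr14:57057981-57058280 (reverse) for Gja3. Capitals mark matches, on either strand, to the T-box core GGTGTG, the NKX2-5 motif TNAAGTG, the GATA motif (the form AGATAA, the form AGATAG, the form TGATAA or the form TGATAG), the GC box GGGCGG and the AP-1 motif TGANTCA.
Gja5: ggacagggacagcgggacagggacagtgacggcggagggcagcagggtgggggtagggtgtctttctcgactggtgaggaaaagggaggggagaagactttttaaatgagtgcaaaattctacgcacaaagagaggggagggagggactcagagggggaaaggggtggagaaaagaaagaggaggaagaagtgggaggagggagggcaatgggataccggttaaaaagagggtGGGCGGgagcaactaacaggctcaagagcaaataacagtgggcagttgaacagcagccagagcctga
Gja1: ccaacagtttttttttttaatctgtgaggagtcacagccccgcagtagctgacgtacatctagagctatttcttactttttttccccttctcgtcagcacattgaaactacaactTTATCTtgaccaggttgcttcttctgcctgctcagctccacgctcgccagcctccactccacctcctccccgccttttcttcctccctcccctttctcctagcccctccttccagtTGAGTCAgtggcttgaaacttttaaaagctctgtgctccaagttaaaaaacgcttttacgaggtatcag
Gja3: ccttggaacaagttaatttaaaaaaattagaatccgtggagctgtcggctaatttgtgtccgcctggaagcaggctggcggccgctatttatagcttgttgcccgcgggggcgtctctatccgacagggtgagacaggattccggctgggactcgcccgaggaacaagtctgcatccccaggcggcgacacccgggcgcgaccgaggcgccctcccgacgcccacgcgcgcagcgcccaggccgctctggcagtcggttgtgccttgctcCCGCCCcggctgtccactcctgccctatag
The Gja5 window held 1 GC box, beginning 17 bases before the start site, and no match to the other motifs. The Gja1 window held 1 GATA match and 1 AP-1 match, and the Gja3 window 1 GC box beyond the start site. Among 32851 promoters of the same length, 35.7% held a GC box, 29.8% a GATA motif, 19% the T-box core, 11.5% the NKX2-5 motif and 7.81% the AP-1 motif. Such matches describe the letters of these windows only. A promoter was listed for 7 of the 9 members, and Gjc1 and Gjd3 had no entry.

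**Figure D2:**
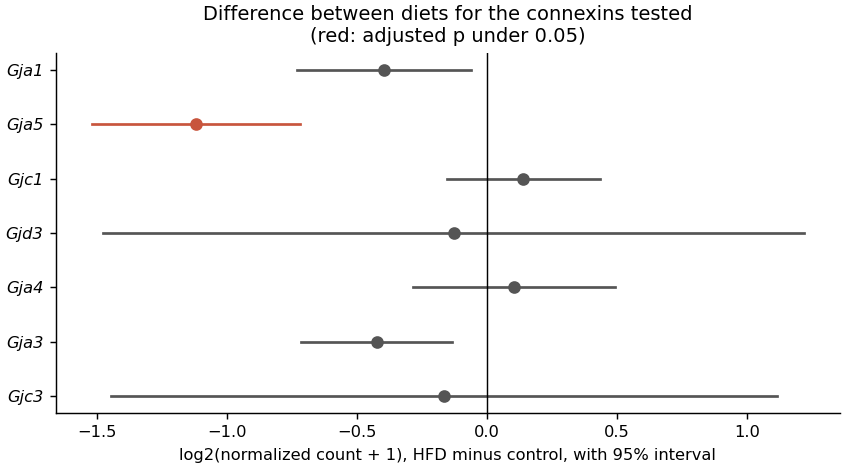
Difference between diets (horizontal axis, log2(normalized count + 1), HFD minus control) for the 7 connexins tested, with limma's 95% interval as a line. Gja5, in red, is the gene with an adjusted p under 0.05, and the intervals of Gja1 and Gja3 also lie below 0.

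Gjc1 and Gjd3 belong to the slowly conducting parts of the heart. Gjc1 encodes connexin 45, typical of the sinus and atrioventricular nodes, and had 363, 328 and 369 normalized counts in the HFD samples and 318, 337 and 307 in the control samples. The groups overlapped, with 2 of the 3 HFD samples above all control samples. The log2 difference was 0.14 (95% interval -0.16 to 0.43, adjusted p = 0.733 from limma). Gjd3, a nodal connexin of low conductance, had 19.1, 14.3 and 7.95 normalized counts with HFD and 19.0, 6.84 and 21.9 with control. Each group spanned most of the range of the other, and the interval of the log2 difference ran from -1.48 to 1.22. With 7 to 20 reads per sample, a change of Gjd3 within that interval was not detectable at this depth. Its gene model of 837 exon bases covers little beyond the coding part of 834 bases, so reads on the rest of a longer transcript would not be counted.

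Gja4 encodes connexin 37, which together with connexin 40 couples the endothelial cells of arteries. Its level was 157, 129.5 and 137 normalized counts in the HFD samples and 132, 136 and 126 in the control samples. The groups overlapped, and only HFD samples 1 and 3 were above the highest control sample. The log2 difference was 0.10 (95% interval -0.29 to 0.49, adjusted p = 0.868 from limma). Whether Gja4 and Gja5 differed in their response was not tested.

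Gja3 encodes connexin 46, best known from the fibre cells of the lens. Its gene (ENSMUSG00000048582) lies on chromosome 14, from 57035608 to 57058030 on the reverse strand. The HFD samples had 274, 265 and 257 normalized counts and the control samples 363, 361 and 345. The groups were separate by 71.2 normalized counts, with a narrow spread in both (265 ± 8.78 and 357 ± 9.65, SD, n = 3 each). The log2 difference of -0.42 (95% interval -0.72 to -0.13) had an unadjusted p of 0.00848 and an adjusted p of 0.196 in limma, and so did not pass the threshold. The log2 difference lay between -0.45 and -0.40 under the 16 alternatives, none of which gave an adjusted p under 0.05.

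The remaining members were close to the limit of detection. Gjc3, a connexin of myelinating glia, had 16.1, 7.14 and 17.0 normalized counts with HFD and 10.1, 12.3 and 23.0 with control, and the groups overlapped (log2 difference -0.17, 95% interval -1.45 to 1.12, adjusted p = 0.946 from limma). The summed level of 6 glial markers was 984 to 1318 with HFD and 1085 to 1330.2 with control, with none past the threshold. Gja6 and Gjb2 were not tested, and no fold is given. Gja6, an X-linked connexin, had 2, 8 and 1 reads in the HFD samples and 0, 2 and 5 in the control samples. Gjb2, the connexin 26 of epithelia and the inner ear, had 3, 2 and 1 reads with HFD and 3, 5 and 2 with control.

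The order of the connexins was compared on levels per kb of exon, which allows genes of different length to be set side by side. Averaged over the 6 samples, Gja1 stood first with 1176 normalized counts per kb, followed by Gja5 with 648, Gja3 with 178, Gja4 with 80.8 and Gjc1 with 67.4. The order of Gja3, Gja4 and Gjc1 depends on the length used. Gjc1 has 5003 exon bases and 1188 coding bases, against 1745 and 1251 for Gja3 and 1685 and 999 for Gja4. Gja1 was above Gja5 in every sample. Gja4 (74.6 to 93.0 per kb) and Gjc1 (61.4 to 73.8 per kb) had ranges that nearly touched, and the ranges of Gjd3 and Gjb5 overlapped. Gjb5, a connexin outside the 9 members, had an adjusted p of 0.918 in limma. Of the 11 other connexins, 5 were at 0 in all samples.

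As a share of the summed level per kb, Gja5 held 20.6%, 23.6% and 24.2% in the HFD samples and 30.8%, 35.3% and 34.8% in the control samples. Gja1 held 56.2%, 55.9% and 58.5% with HFD and 50.7%, 49.7% and 52.2% with control. The groups did not overlap for either gene (exact permutation p = 0.1 for each, two-sided), and the share of Gja1 was higher in HFD although its level was not. The same held for the shares of Gja4 and Gjc1, which were higher in HFD without overlap. Gja4 held 4.02% to 5.71% with HFD and 2.51% to 3.55% with control, and Gjc1 3.64% to 4.45% and 2.06% to 2.88%. These shares use the same exon lengths and sum to a fixed total, so that a lower share of one gene raises those of the others.

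**Figure D3:**
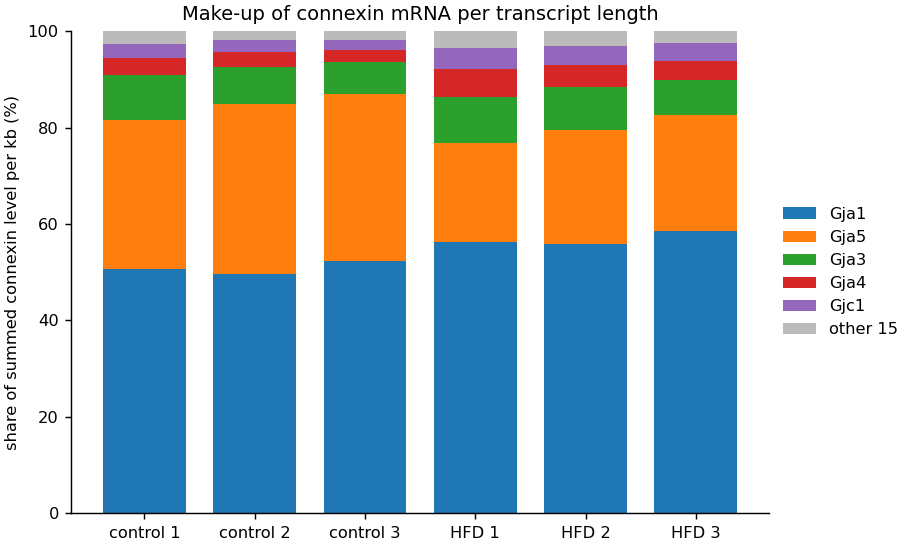
Share of each connexin in the summed level per kb of the 20 connexin genes (vertical axis, percent) in each sample. The Gja5 segment is 20.6% to 24.2% in the 3 HFD samples and 30.8% to 35.3% in the 3 control samples.

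The ratio of Gja5 to Gja1 within a sample does not use the size factors. On the log2 scale per kb it was -1.45, -1.25 and -1.27 in the HFD samples and -0.72, -0.49 and -0.59 in the control samples. All HFD samples were below all control samples, by at least 0.53. The mean ratio was -1.32 ± 0.11 with HFD and -0.60 ± 0.11 with control (SD, n = 3 each), a difference of -0.72 (two-sided exact permutation p = 0.1). In linear terms, Gja1 exceeded Gja5 per kb of exon by 2.37 to 2.73 times with HFD and by 1.41 to 1.65 times with control. The exons hold 6438 bases for Gja1 and 3166 for Gja5, and the coding parts 1146 and 1074. The size of this ratio thus depends on the length used, while its log2 difference between diets does not.

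Atrial myocyte markers varied between the samples beside Gja5. HFD samples 1 and 2 had low Myl7, with 31186 and 27168 normalized counts against 58765 in HFD sample 3 and 56346 to 60190.2 in the controls, and Myl4 and Nppa were likewise lowest in these samples. Sln and Dkk3 were lower in all HFD samples than in any control sample, as were 9.17% of all genes tested. Bmp10 ran the other way in fitted value, with 1386, 5575 and 7959.9 normalized counts with HFD and 2211, 1375 and 5568 with control (log2 difference 0.62, adjusted p = 0.741 from limma). The summed level of the 6 atrial markers was 301834 to 532731 with HFD and 461241 to 499600 with control, and none of the 6 had an adjusted p under 0.05. Relative to the mean log2 level of these markers, Gja5 was at -4.47, -4.48 and -4.70 in the HFD samples and -4.04, -3.42 and -3.60 in the control samples. The groups stayed apart, and the difference was -0.86 (two-sided exact permutation p = 0.1). Gja1 on the same scale differed by -0.14 and its groups overlapped. With Bmp10 left out of the markers, an alternative added after seeing the data, the difference of Gja5 was -0.69 and that of Gja1 turned to 0.04. Gja5 was then at -5.29 to -4.94 with HFD and -4.84 to -4.17 with control, so the groups were separate by a narrow gap only. The part of myocyte content in the level of Gja5 was not tested.

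Gja5 is also made by arterial endothelium, whose markers are given for that reason. The summed level of 6 endothelial markers was 16079.9 to 17226 with HFD and 13726 to 14417 with control, with none past the threshold. Their mean log2 level was 11.20 to 11.30 with HFD and 11.03 to 11.13 with control, so the groups were separate on this scale. Without Pecam1, left out after seeing the data, the sums overlapped, at 10084 to 10967 with HFD and 9620.2 to 10574 with control. Of these 5 markers, Cdh5, Kdr, Tie1 and Tek had log2 differences of 0.04, 0.14, 0.16 and 0.18, and Egfl7 one of -0.19. The platelet and endothelial adhesion gene Pecam1 had a log2 difference of 0.57 (adjusted p = 0.0504 from limma). The 6 arterial markers summed to 1948 to 2202 with HFD and 1857 to 2072 with control. Among them the semaphorin Sema3g had a log2 difference of 0.77 and the Notch target Hey1 one of -0.37, and neither passed. Gja5 relative to the arterial markers was 1.74 to 2.25 with HFD and 2.82 to 3.38 with control, so the groups were separate on this scale too.

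**Figure D4:**
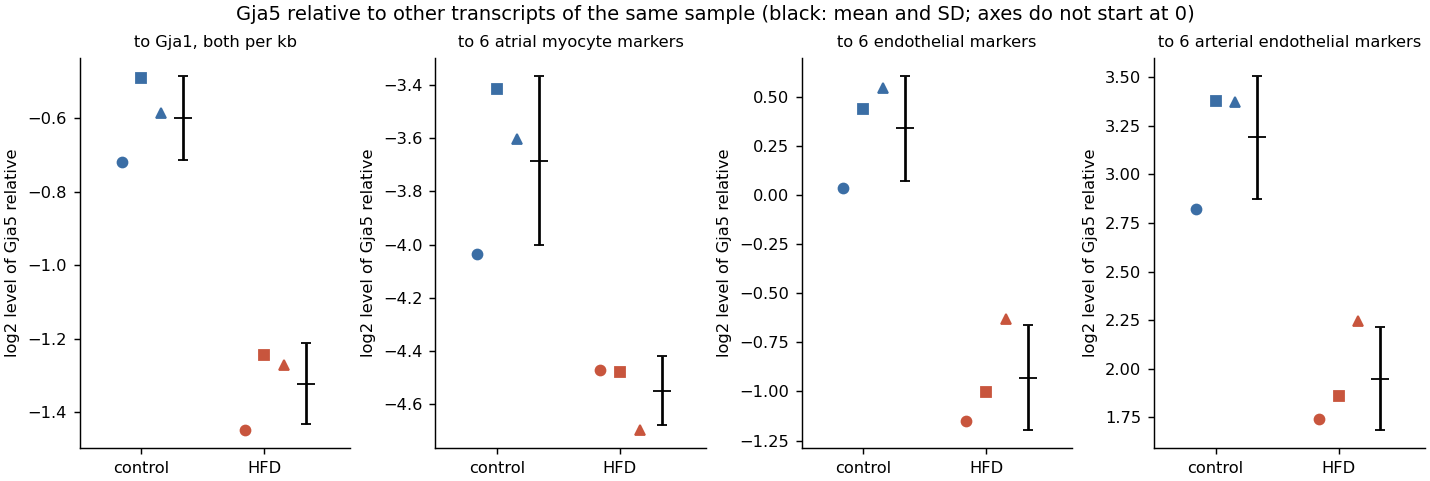
Level of Gja5 relative to Gja1 per kb and to the mean of 3 marker lists within each sample (vertical axes, log2, not from 0), with control in blue, HFD in red and the mean with SD in black. In all 4 panels every HFD sample lies below every control sample.

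Among 6 markers of nodal and conduction cells, none passed the threshold. Vsnl1, a calcium sensor of the sinus node, had the largest difference (-0.89, adjusted p = 0.251 from limma) and Cntn2, an adhesion protein of conduction cells, the next (-0.59, adjusted p = 0.273). The summed level of the list was 1282 to 2067 with HFD and 1582 to 2219 with control. Relative to these markers the groups of Gja5 overlapped, at 3.03 to 4.28 with HFD and 3.62 to 4.76 with control (difference -0.82, two-sided exact permutation p = 0.2). None of the tested markers of ventricular myocytes, endocardium, fibroblasts, smooth muscle, mesothelium, leukocytes or white adipocytes passed. Of 4 brown adipocyte markers, 2 passed, against 0.746% of all genes. Ucp1, the uncoupling protein of brown fat, and the lipid droplet gene Cidea rose in HFD (log2 differences of 4.43 and 1.21, adjusted p of 0.0446 and 0.031 from limma), while Dio2 did not pass (1.32, adjusted p = 0.0591) and Elovl3 was too low to test. The list summed to 616 to 1283 with HFD and 187 to 330.3 with control. The part of these cells in the level of Gja5 was not tested.

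The partners of connexins were examined as lists. Of 14 genes for binding, traffic and turnover of connexins, none had an adjusted p under 0.05, with 8 higher and 6 lower in fitted value and a median of 0.02. The largest differences were those of Dlg1, a membrane scaffold (0.31), Smurf2, a ubiquitin ligase (0.28), the kinase Src (-0.22) and the ubiquitin ligase Nedd4 (0.18). Tjp1, the scaffold that binds the tail of connexin 43, had a log2 difference of 0.09, and was named after its value was seen. None of 11 genes of the desmosomes and adherens junctions passed either, where the desmosomal cadherin Dsc2 had the largest difference (-0.51, adjusted p = 0.172 from limma) and the plakophilin Pkp2 one of 0.37 (adjusted p = 0.25). Of the 3 pannexins, which form channels without docking, Panx1 and Panx2 were tested and neither passed. Panx2 was lower in all HFD samples (191 to 229 normalized counts) than in the control samples (243 to 306), as were 9.17% of all genes tested.

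Of 15 transcription factors of cardiac connexin genes, 1 passed the threshold, where 0.746% of all genes did so in either direction and 0.262% were lower. Hopx, an atypical homeodomain protein that does not itself bind DNA, had 1382, 1303 and 1858 normalized counts in the HFD samples and 2629, 3251 and 2582 in the control samples. The groups did not overlap, and the log2 difference was -0.91 (SE 0.15, adjusted p = 0.031 from limma). Its adjusted p exceeded 0.05 with no variance trend (0.189) and when HFD 1, HFD 2 or any control sample was left out (0.0857 to 0.142). The other 14 did not pass, with 7 of the 15 higher and 8 lower in fitted value and a median of -0.05. Tbx5 and Nkx2-5, which activate Gja5 in the atrium, had log2 differences of -0.09 and -0.15, and Tbx3, a repressor in the nodes, one of 0.21, these 3 being named after their values were seen.

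**Figure D5:**
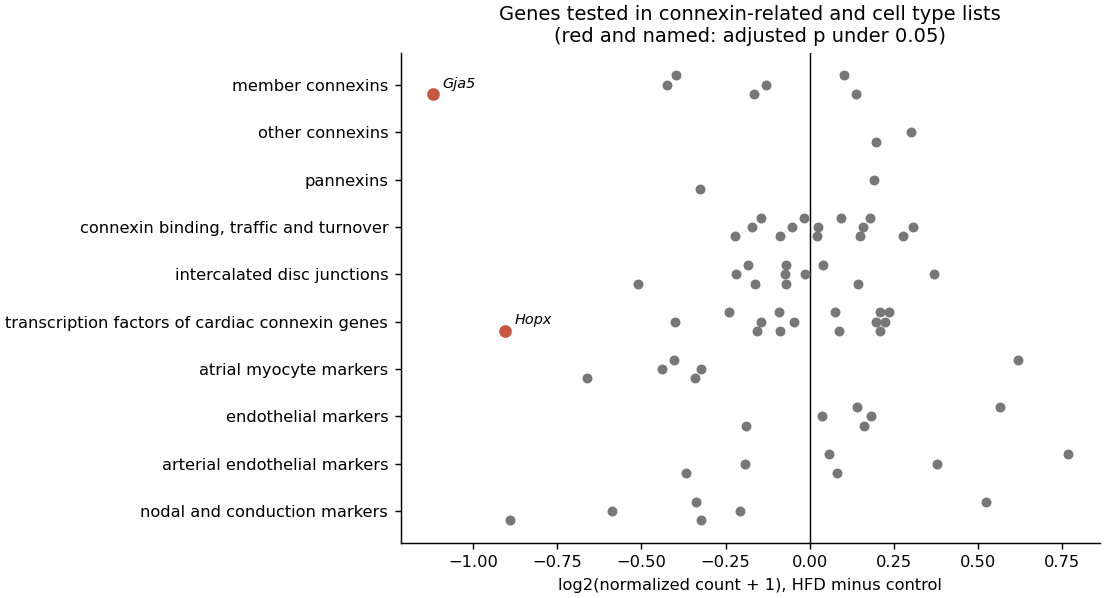
Difference between diets (horizontal axis, log2(normalized count + 1), HFD minus control) of every gene tested in 10 lists, 1 point per gene. Gja5 and Hopx, in red, are the genes with an adjusted p under 0.05, and the points of the other lists lie on both sides of 0.

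The genes whose 6 log2 values, centred on their mean, lay closest to those of Gja5 were Slc16a12, Elmo3, Aplnr, Mmp13 and Ppp1r14c. The root mean square difference from Gja5 was 0.12 for Slc16a12, a monocarboxylate transporter, 0.13 for the engulfment gene Elmo3 and 0.14 for the apelin receptor Aplnr. Aplnr had 182, 214 and 286 normalized counts with HFD and 430.0, 545 and 473 with control. It was the only one of the 5 with an adjusted p under 0.05 (log2 difference -1.10, adjusted p = 0.0303 from limma). Since Gja5 itself separates the groups, genes near to it do so by construction.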

How the data were processed

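The authors sequenced directional libraries as single-end 50-base reads, aligned them to GRCm38 (Ensembl 79) with STAR, counted genes with Salmon and scaled them with DESeq2. The deposited signal is the count of reads per gene divided by 1 size factor per sample, and 100% of the values were whole reads within 0.01 read. Whether strand was used in counting is not given in the sources used here. The authors' own fold changes, p-values and ranking scores, deposited in the same table, were not used. One row with no gene, at 0 throughout, was left out. GENCODE names matched 42462 of 43432 identifiers, and the 9 members, written in capitals in the table, were matched ignoring case.

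HFD and control samples were tested in limma 3.58.1 under R 4.3.3, with a variance trend and no covariate. The scale was log2(normalized count + 1), genes needed a mean of 10, and the adjusted p threshold was 0.05. Levels per kb used GENCODE exons within the deposited gene bounds. Members and lists were chosen with earlier results of these data known. Besides all members, up to 4 genes per list were named, those past the threshold or else with the largest difference, and the 5 genes nearest in pattern to a member past the threshold. The fit was tested on simulated data. Alternatives were quantile and TMM normalization, no variance trend, a pseudocount of 0.1, other filters, mitochondrial genes left out, each sample left out, a replicate block, edgeR 4.0.16 and DESeq2 1.42.0 on the recovered reads.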

Additional observations from a re-analysis of the deposited data

How the results depend on the processing

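Under the 16 alternatives the log2 difference of Gja5 stayed negative, and its adjusted p was under 0.05 in 11. It exceeded 0.05 with no variance trend (log2 difference -1.12, adjusted p = 0.183 from limma), where 0 of the 9 members and 0 genes in all were called although 1717 genes had an unadjusted p under 0.05. With each sample left out in turn, the difference of Gja5 ranged from -1.30 to -0.99, the number of members called from 0 to 1, and the number of genes called from 14 (without control 2) to 342 (without HFD 3), against 114 in all. DESeq2 called 470 genes and edgeR 87. The cause of these shifts was not tested. Gja1 was called under no alternative. The sign of Gjc3, at -0.17, turned in 2 and that of Gjd3, at -0.13, in 3 of the fits with a sample left out, with ranges of -0.40 to 0.20 and -0.61 to 0.19. The ratio of Gja5 to Gja1 and the level of Gja5 relative to atrial markers kept their sign throughout (-0.78 to -0.66 and -1.04 to -0.69). Samples with the same replicate number in the 2 groups had correlations of 0.12, -0.03 and 0.00 between their deviations from the group means. Samples with different numbers had -0.15 to 0.16. These correlations cannot show whether samples were collected or prepared in pairs, so pairing is not known. With a replicate block the difference of Gja5 was -1.12 (adjusted p = 0.0034 from limma) and 157 genes were called. Hopx, Aplnr, Ucp1 and Cidea, whose alternatives were added after seeing the data, kept their direction throughout and an adjusted p under 0.05 in 10 of 16, 10 of 16, 9 of 15 and 11 of 16 alternatives.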
